A study of Mus musculus with 40 samples.

Results

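The nuclear-encoded subunits of oxidative phosphorylation were followed in mouse fat from animals on a normal or a high-fat diet, with and without beta-carotene. Members were taken by gene symbol: rows of the deposited table whose names begin Nduf, Sdh, Uqcr, Cox or Atp5 in the pattern of a structural subunit, without pseudogene rows, assembly factors, Cox7a1 and Cox8b. The name pattern matched 88 of 55270 rows, and 86 of them reached 1 TPM (a transcript abundance per length, scaled to the library total) in at least 5 of 40 libraries and were kept. Cox7b2 and Ndufa11b reached that level in 1 and 3 libraries and were left out. The 86 kept members divide into 41 of complex I, 4 of complex II, 8 of complex III, 16 of complex IV and 17 of complex V. Ndufa4 is counted here with complex I by its name, although its protein is now placed with complex IV. Cyc1 and Ndufab1, which also encode subunits, do not match the name pattern.

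Complexes I to IV form the respiratory chain of the inner mitochondrial membrane: complex I takes electrons from NADH, complex II from succinate, and complexes III and IV pass them through cytochrome c to oxygen. Complexes I, III and IV pump protons, and complex V, the ATP synthase, lets the protons flow back and makes ATP. Each complex except II joins subunits encoded in mitochondrial DNA to subunits encoded in the nucleus, and the promoters of nuclear subunits are known to be bound by NRF1, by ETS factors such as GABPA, by YY1 and by estrogen-related receptors.

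RNA-seq was made from fat of C57BL/6J mice in 8 groups of 5 libraries. The labels cross subcutaneous with visceral fat, the latter from the epididymis per the series description, and normal chow with high-fat diet (HFD), each with and without a drug that the series description names as beta-carotene. The 4 groups of each depot label are therefore called normal, normal with drug, HFD and HFD with drug, and no genetic change is named for any of them. The labels used here give no dose, duration or age, and whether libraries are separate animals is not stated, so p-values reflect spread among libraries, which may be technical. Adipocyte markers were high in all, with 10 genes summing to 20253.4 to 101602 TPM per library.

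The depot labels ran against the marker genes, and the libraries held RNA of other tissues. Summed TPM of 9 mesothelial markers was 78.8 to 1057.7 in the 20 libraries labelled subcutaneous and 5.8 to 88.4 in the 20 labelled visceral. Of 5 tested positional genes of inguinal fat, 3 were lower (Hoxc10, Shox2 and Hoxc9) and 2 higher in the libraries labelled subcutaneous, with Hoxc10 at -3.61 on the log2 scale (limma, adjusted p = 2.8e-17). Sample titles follow the same split: those labelled subcutaneous end in e or ewat and those labelled visceral in i, letters that the labels do not explain. Labels were kept as given, and groups are called labelled subcutaneous and labelled visceral. In the libraries labelled subcutaneous, 22 epididymis and testis markers summed to 6.3 to 48639.6 TPM, against 1.3 to 175.8 in those labelled visceral. In the libraries labelled visceral, 18 skeletal muscle markers summed to 77.6 to 21987.1 TPM, against 61.7 to 713.4 in the others. In such tissue samples, fewer cells of a type and less RNA per cell cannot be told apart.

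Promoters of 5 members show what the RefSeq windows hold, chosen from members that were higher with drug under HFD (Atp5g2, Uqcrh, Atp5h, Ndufb11) and 1 that did not pass that test (Sdha). Each line gives the 250 bases before the annotated start, 5′ to 3′ on the gene's strand, with motif matches in capitals.
Atp5g2: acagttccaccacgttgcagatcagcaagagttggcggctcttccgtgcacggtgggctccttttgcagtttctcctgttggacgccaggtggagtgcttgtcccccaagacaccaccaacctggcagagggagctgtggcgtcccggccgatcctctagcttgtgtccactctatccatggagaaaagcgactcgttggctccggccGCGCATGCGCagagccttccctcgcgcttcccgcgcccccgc
Uqcrh: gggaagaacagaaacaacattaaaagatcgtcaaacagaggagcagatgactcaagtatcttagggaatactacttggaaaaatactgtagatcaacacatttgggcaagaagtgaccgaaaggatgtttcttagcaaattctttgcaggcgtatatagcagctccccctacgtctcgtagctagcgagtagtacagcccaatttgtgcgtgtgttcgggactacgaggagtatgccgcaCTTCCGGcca
Atp5h: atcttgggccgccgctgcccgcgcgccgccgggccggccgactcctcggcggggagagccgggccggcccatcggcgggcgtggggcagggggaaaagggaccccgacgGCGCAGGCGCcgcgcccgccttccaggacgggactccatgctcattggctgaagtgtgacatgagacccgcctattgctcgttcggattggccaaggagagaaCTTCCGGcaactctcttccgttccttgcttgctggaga
Ndufb11: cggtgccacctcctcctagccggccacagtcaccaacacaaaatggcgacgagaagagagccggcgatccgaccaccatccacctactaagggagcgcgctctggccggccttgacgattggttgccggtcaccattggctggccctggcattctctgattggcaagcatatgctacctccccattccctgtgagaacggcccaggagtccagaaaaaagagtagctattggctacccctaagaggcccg
Sdha: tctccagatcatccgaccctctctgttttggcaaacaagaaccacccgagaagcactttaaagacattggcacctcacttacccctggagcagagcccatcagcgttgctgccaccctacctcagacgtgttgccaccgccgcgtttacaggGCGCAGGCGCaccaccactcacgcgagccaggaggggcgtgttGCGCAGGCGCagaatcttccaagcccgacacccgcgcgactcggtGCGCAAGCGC
All 5 lie on the minus strand of RefSeq build GRCm38.p6: Atp5g2, a c-ring subunit of ATP synthase, at chr15:102671048-102671297, Uqcrh, the hinge protein of complex III, at chr4:116075071-116075320, and Atp5h, a peripheral stalk subunit, at chr11:115419920-115420169. Ndufb11, an accessory subunit of complex I, lies at chrX:20617620-20617869, and Sdha, the flavoprotein that oxidises succinate, at chr13:74350241-74350490. The NRF1 motif was searched on both strands as the letters GCGCATGCGC, matched in Atp5g2, with any base allowed at the fifth. It begins 42 bases before the start of Atp5g2, 141 before that of Atp5h, and 98, 55 and 10 before that of Sdha. The ETS letters CCGGAAG, also on both strands, begin 10 bases before the start of Uqcrh and 38 before that of Atp5h. None of the searched letters occurs in the window shown for Ndufb11.

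Promoter windows of 300 bases, from 250 before to 50 after the start, were found by symbol for 66 of the 86 members, 71 windows in all. The NRF1 letters occurred in 25.4% of these windows and in 4.6% of all 32851 RefSeq windows. The ETS letters occurred in 23.9% against 8.86%, the YY1 letters AAGATGGC in 14.1% against 2.75%, and the estrogen-related receptor letters AAGGTCA in 11.3% against 4.72%. Both strands were searched for each, the ETS and YY1 letters can share the bases AAG, and a match is a description, not a bound site. Of the 26 windows of members that were higher with drug under HFD in the libraries labelled subcutaneous, 7 held the NRF1 letters, 5 the ETS letters, 3 the YY1 letters and 1 the receptor letters.

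Levels differed widely between members. Means over the 40 libraries ran from 0.844 TPM for Ndufs6b to 1461 TPM for Atp5b, the catalytic beta subunit of ATP synthase. The mean was at least 10 TPM for 77 members and at least 100 TPM for 34. The 86 members together took 0.855% to 1.76% of the TPM of a library, and the 5 highest supplied 33.8% of the members' sum. Complex V led with Atp5b, Atp5g3 (659 TPM, a c-ring gene) and Atp5a1 (642 TPM, the alpha subunit). Complex IV followed with Cox8a (658 TPM), Cox7c (494 TPM) and Cox6a1 (388 TPM), all small subunits without redox centres.

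**Figure D1:**
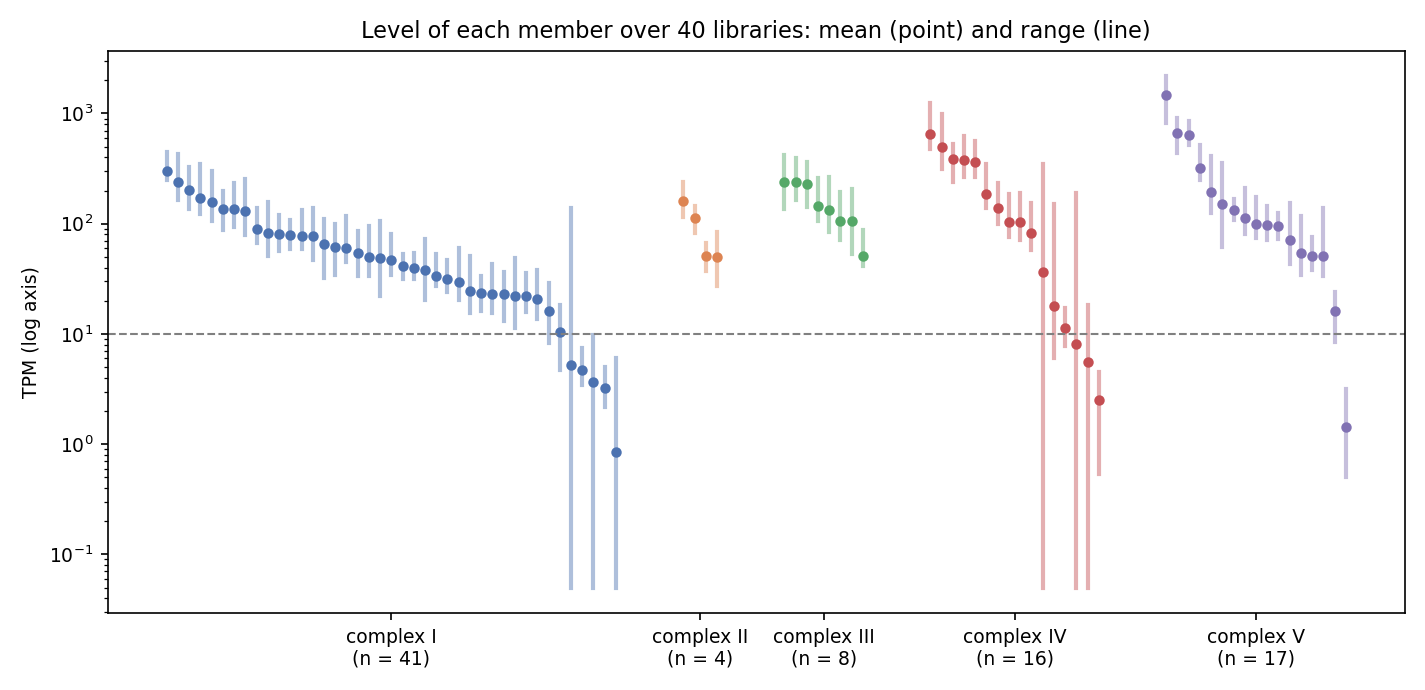
Mean TPM (points) and range over 40 libraries (lines) of each of the 86 members, grouped by complex and ordered by mean, on a log axis. Lines of members listed at 0 in some library are drawn down to 0.05 TPM, and the dashed line marks 10 TPM, a level that 77 members reached on average.

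Within complex I the highest members were Ndufb10 (301 TPM) and Ndufb11 (238 TPM), accessory subunits of the membrane arm, and Ndufv1 (202 TPM), which binds NADH and FMN. In complex II, Sdha had 160 TPM, Sdhd 113 TPM, Sdhc 51 TPM and Sdhb, its iron-sulfur subunit, 49.7 TPM. In complex III, Uqcr10 and Uqcrq, 2 small subunits, had 238 and 237 TPM, and Uqcrfs1, the Rieske iron-sulfur protein, had 230 TPM, while the core protein Uqcrc2 was lowest at 51.1 TPM. Some widely used subunits were listed at low levels: Atp5o, which joins the peripheral stalk to the catalytic head, at 1.44 TPM and Cox5a, a matrix-side subunit of complex IV, at 11.4 TPM. In the GENCODE M21 annotation the exons of Atp5o overlap a second model of that symbol and Donson, so its value is uncertain. For 9 members the table also holds pseudogene rows of the same name, so their values depend on how shared reads were counted.

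Isoform members marked other tissues. Cox6b2 and Cox8c, the latter also in the epididymis and testis list, are testis isoforms, and both peaked in the same pair of libraries labelled subcutaneous. Cox8c stood at 190 TPM in normal library 96 and 117 TPM in HFD library 82, and at no more than 4.72 TPM in the other 38. Cox6b2 stood at 150.6 and 92.8 TPM in those 2 libraries and between 5.99 and 30.7 TPM in the others. Ndufb11b, named like Ndufb11 and singled out after its values were seen, followed with 137.7 and 65.1 TPM there and at most 2.13 TPM elsewhere. The same 2 libraries had 3662 and 2220 TPM of Tnp2, a transition protein of sperm chromatin.

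Cox6a2, the heart and skeletal muscle isoform, lay between 0 and 15.7 TPM in the 20 libraries labelled subcutaneous and between 1.33 and 346.8 TPM in the 20 labelled visceral. Its highest value, in HFD with drug library 62 of the visceral label, came with the highest muscle marker sum of all, 21987.1 TPM. Cox4i2, the lung and hypoxia isoform of subunit IV, stayed between 0.535 and 4.53 TPM. Cox7a2l, known for a role in supercomplex assembly, averaged 82.9 TPM with a range of 57.3 to 153.7 TPM.

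The complexes varied by similar factors between libraries. The members' sum ran from 8534 TPM in normal with drug library 9 of the subcutaneous label to 17547 TPM in HFD with drug library 25 of that label, a factor of 2.06. The highest library exceeded the lowest 2.05-fold for complex I, 1.97-fold for II, 2.31-fold for III, 2.2-fold for IV and 1.92-fold for V. Library 9 was lowest for complexes I, II, III and V, and it also had the highest epididymis and testis marker sum, 48639.6 TPM. On the log2 scale, the median SD of a member within groups was 0.22 for complex I, 0.21 for II, 0.24 for III, 0.21 for IV and 0.20 for V, and the median SD between the 8 group means was 0.21, 0.15, 0.21, 0.21 and 0.19 in that order.

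**Figure D2:**
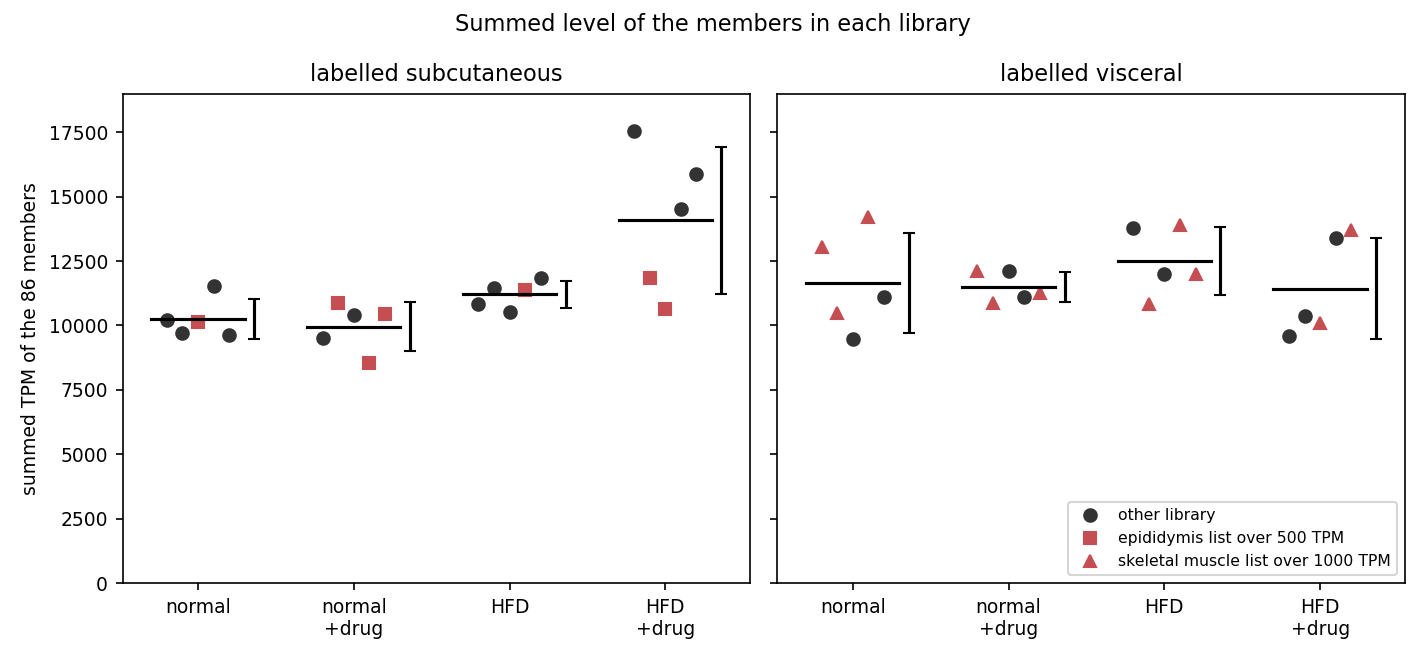
Summed TPM of the 86 members in each library (points), by depot label and treatment, with the mean (horizontal bar) and SD (error bar to the right, n = 5). Squares mark libraries with more than 500 TPM of epididymis and testis markers and triangles those with more than 1000 TPM of skeletal muscle markers. In HFD with drug of the subcutaneous label, the 2 squares lie at 10620 and 11838 TPM and the 3 circles between 14527 and 17547 TPM.

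Under HFD, the drug groups of the subcutaneous label gave the clearest difference. Of 76 members with 10 TPM or more in 5 or more of the 20 libraries fitted, 26 were higher with drug and 1 was lower (limma on log2(TPM + 1), Benjamini-Hochberg adjusted p under 0.05 over 7776 genes). Of all genes tested, 4.4% were higher and 23% lower. The median change of the members was 0.35 and that of all genes -0.19, and 71 of the 76 changes were above 0. The groups did not overlap for 14 of the 76 members, a share near the 17.5% of all genes, so non-overlap does not set the members apart. With library medians made equal, the median of all genes moved to 0.01, with 694 genes higher and 873 lower, and 39 members were higher and 0 lower. The 26 comprised 15 members of complex I, 1 of III, 5 of IV and 5 of V, and none of the 4 members of complex II.

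Cox6c, a small membrane subunit of complex IV, had the largest change of the members. It had 78.1, 94.4, 78.4, 92.2 and 91.4 TPM in the HFD libraries and 154.0, 188.0, 152.1, 138.5 and 151.6 TPM with drug. Values here and for the next members are in the order of libraries 22, 23, 50, 82 and 83 for HFD and 27, 25, 26, 52 and 62 for HFD with drug. Every library with drug lay above every HFD library. The change was 0.84 (SE 0.14, limma adjusted p = 0.0022).

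Cox4i1, the widely expressed isoform of subunit IV, had 288, 308, 287.0, 317 and 333 TPM under HFD and 547, 563, 497, 456 and 480.4 TPM with drug. The groups again stood apart, and the change was 0.73 (SE 0.12, limma adjusted p = 0.0021). These 2 members passed in all 25 alternative settings tried, and they were the only members to do so in this comparison. Cox7c, Cox7a2 and Cox8a, further small subunits, were higher by 0.47, 0.45 and 0.40, calls that were lost in 14, 13 and 13 of 25 alternative settings, with changes down to 0.20, 0.16 and 0.03. Cox5a did not pass at 12.3 ± 2.27 against 10.8 ± 0.755 TPM (mean ± SD, n = 5 each; limma adjusted p = 0.37).

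In complex I the accessory subunits, which surround the catalytic core, supplied 14 of the 15 higher members, from 28 tested, beside 7 core subunits and Ndufa4l2, a tissue-restricted paralogue. Ndufa1, a short membrane protein, had 68.8, 77.7, 67.5, 72.7 and 73.7 TPM under HFD and 136.6, 138.5, 121.6, 96.2 and 112.0 TPM with drug. No drug library fell within the HFD range, and the change was 0.73 (SE 0.19, limma adjusted p = 0.01). Ndufb11 had 172, 207, 183, 204 and 218 TPM under HFD and 263, 428, 291, 281 and 337 TPM with drug. The lowest drug library was above the highest HFD library, and the change was 0.68 (SE 0.16, limma adjusted p = 0.0064). Ndufb9 and Ndufa6, both LYR-motif proteins, were higher by 0.66 and 0.63, and Ndufa5 by 0.53. The calls of Ndufb9, Ndufa6 and Ndufa5 were lost in 8, 1 and 10 of 25 settings.

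Of the 7 core subunits of complex I, which carry FMN or iron-sulfur clusters or line the quinone site, 1 passed. That was Ndufv2, named after its value was seen, with a change of 0.38 (limma adjusted p = 0.021). Ndufs1, an iron-sulfur subunit and the largest of complex I, had 22.5 ± 4.24 TPM with drug and 23.6 ± 0.966 TPM under HFD, and Ndufv1 had 214.8 ± 46.5 against 194.3 ± 22.3 TPM (n = 5 each). Neither difference exceeded the spread between libraries (limma adjusted p = 0.66 and 0.53). Ndufb8, an accessory subunit, did not pass either, at 85.4 ± 21.7 against 68.9 ± 8.03 TPM (limma adjusted p = 0.27).

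Ndufa4l2, a paralogue of Ndufa4 known as a hypoxia-induced gene, was the 1 member that fell. It had 60.4, 52.2, 71.8, 73.2 and 72.6 TPM under HFD and 22, 43.1, 39.1, 45 and 49.7 TPM with drug. All 5 drug libraries were below the lowest HFD library, and the change was -0.75 (SE 0.21, limma adjusted p = 0.016). Its adjusted p ran from 0.0058 to 0.097 over 25 alternatives, and it did not pass under quantile normalization, with library medians made equal, or without HFD libraries 22 and 50.

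The 4 subunits of complex II lay close together. Sdha had 120.4, 148, 124, 133 and 148 TPM under HFD and 115.1, 149.0, 121.7, 174.3 and 184.7 TPM with drug. The groups overlapped, and the change of 0.12 (SE 0.14) did not pass (limma adjusted p = 0.54). Changes of Sdhb, Sdhd and Sdhc were 0.15, 0.09 and -0.09, with limma adjusted p between 0.56 and 0.67.

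In complex III, Uqcrh had 127, 128, 123, 132 and 130.1 TPM under HFD and 138.5, 259.0, 159.2, 173.9 and 197.3 TPM with drug. The groups did not overlap, and the change was 0.50 (SE 0.13, limma adjusted p = 0.0099). The core proteins and the Rieske protein did not pass: Uqcrc1 changed by -0.10, Uqcrc2 by 0.23 and Uqcrfs1 by 0.28.

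In complex V, Atp5c1, the gamma subunit that forms the rotor shaft, had 71.6, 83.3, 74.8, 76.9 and 82.8 TPM under HFD and 83.8, 126.7, 89.7, 113.9 and 144.6 TPM with drug. The lowest drug library, number 27, lay just above the highest HFD library, and the change was 0.49 (SE 0.14, limma adjusted p = 0.015). Atp5e, the epsilon subunit, was higher by 0.48, Atp5j2 by 0.46, Atp5h by 0.44 and Atp5g2 by 0.42, calls that were lost in 11, 7, 6 and 3 of 25 settings. The alpha and beta subunits, which form the catalytic head, did not pass. Atp5a1 had 661 ± 103 against 654 ± 28.4 TPM and Atp5b 1528 ± 442 against 1396 ± 112 TPM (n = 5 each; limma adjusted p = 0.99 and 0.77).

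**Figure D3:**
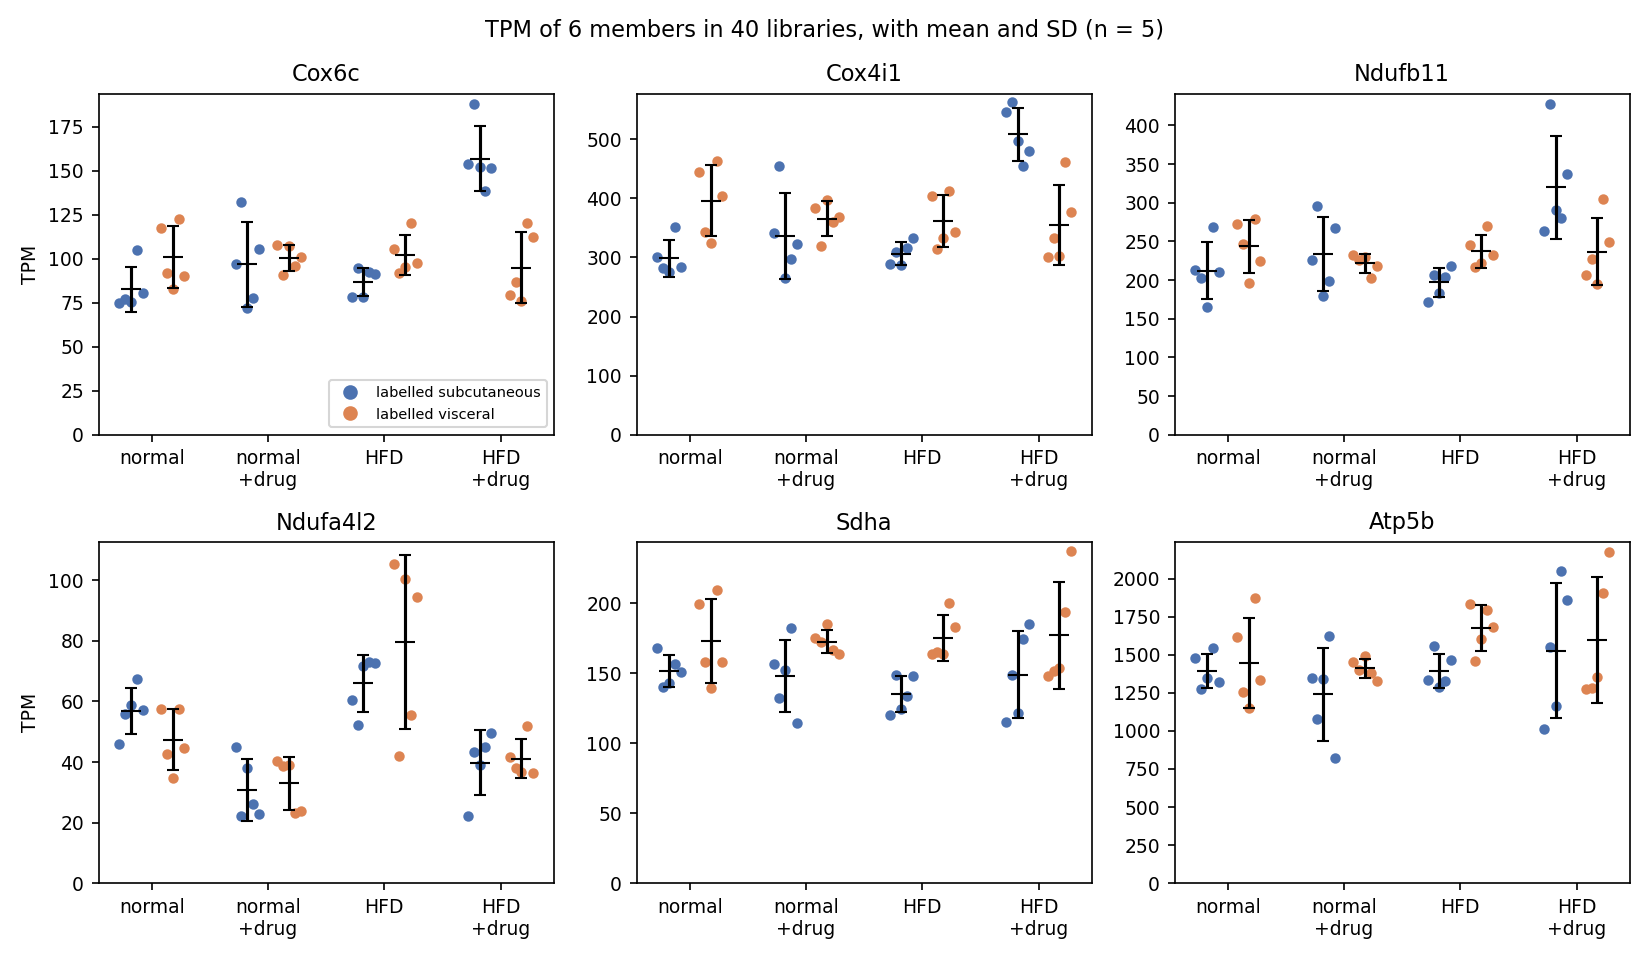
TPM of 6 members in all 40 libraries (points) by treatment, with mean and SD (n = 5), in blue for the subcutaneous and orange for the visceral label. Under the subcutaneous label, Cox6c, Cox4i1 and Ndufb11 in HFD with drug lie above all 5 HFD libraries and Ndufa4l2 lies below them, while Sdha and Atp5b overlap between the groups.

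Several quantities moved with this difference. The 12 macrophage markers summed to 3189.5 to 13893.6 TPM in the HFD libraries and to 1568.0 to 2804.4 TPM with drug, none was at 0 in every library of a group, and 9 of 10 tested were lower with drug. HFD libraries 22 and 50 had the highest macrophage sums. Without that pair, 2 members were higher and 0 lower, against 0.0923% of all genes higher and 1.86% lower, and the members' median change was 0.30. The 2 were Cox4i1 and Cox6c. Epididymis and testis markers summed to 10.4 to 2773.2 TPM under HFD, where Spinkl and Pate4 were at 0, and to 9.8 to 17157.8 TPM with drug. Without the 7 libraries of this label with more than 500 TPM of them, 59 members were higher and 1 lower, against 5.92% and 31.6% of all genes, with a median change of 0.55. The 9 mesothelial markers, none at 0 in every library of a group, summed to 78.8 to 236.4 TPM under HFD and to 274.0 to 817.9 TPM with drug, and 3 of 7 tested (Krt18, Krt8 and Krt19) were higher. The 6 endothelial markers, none at 0 in every library of a group, summed to 220.2 to 299.0 TPM under HFD and to 102.6 to 191.3 TPM with drug, and 2 of 4 tested (Tie1 and Cdh5) were lower. The part of these cell types in the result was not tested beyond these values.

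Single libraries also moved the count. It fell to 10 higher members without HFD with drug library 25, to 15 without library 62 of that group, to 12 without HFD library 22 and to 13 without HFD library 50, and it rose to 39 without HFD with drug library 27. Library 25 had the highest members' sum of the series. Shares of all genes called in these settings are not given here, so the counts do not separate the members from genes at large.

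The members are short genes, with a median exon length of 1478 bp against 3526.5 bp for the genes tested. Of members shorter than their median, 14 of 34 were higher, against 9.11% of all genes of that length. Of the longer members, 12 of 39 were higher, against 3.48% of all such genes. When a trend of value on length was removed within each library, 21 of 73 members with a length were higher, 16 of them among the 26, against 8.67% of genes. When the library medians were also kept, an alternative chosen after seeing the data, 9 were higher, all among the 26, against 2.9% of genes, with a median change of 0.15. Cytosolic ribosomal protein genes, also short at a median of 1781 bp, were higher in 54 of 73 tested, with a median change of 0.51. The part of length in the result was not tested beyond these values.

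**Figure D4:**
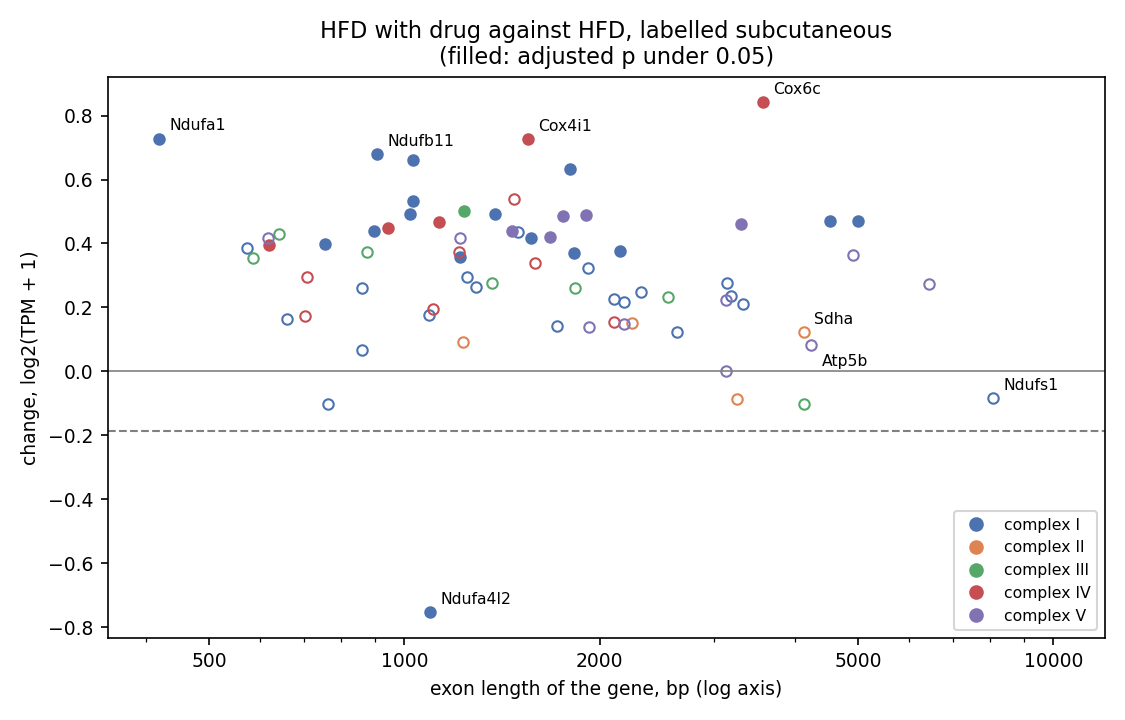
Change with drug under HFD in the subcutaneous label (vertical axis, log2(TPM + 1)) against exon length (horizontal, log axis) for the tested members with a length, coloured by complex and filled where the adjusted p was under 0.05. The dashed line is the median of all genes at -0.19. Cox6c, at 3567 bp, has the largest increase, and Ndufs1, at 8086 bp, lies below 0.

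Other mitochondrial lists did not move as one, beside 4.4% of all genes higher and 23% lower. Of 11 tested subunits encoded in mitochondrial DNA, mt-Co3, a catalytic subunit of complex IV, was higher (0.51) and none was lower. Of 28 tested assembly factors, 3 were higher (Fmc1, Uqcc3 and Cox14) and 3 lower (Atpaf2, Acad9 and Coa5). Of 16 genes of the citric acid cycle and pyruvate dehydrogenase, none was higher and Dlat, a pyruvate dehydrogenase subunit, was lower by 0.46. Of 8 tested regulators of mitochondrial biogenesis, none was higher and Pprc1 (-0.79) and Polrmt (-0.40), the mitochondrial RNA polymerase, were lower. The shares lower in the citric acid cycle and regulator lists were near or below that of all genes. Of 64 mitochondrial ribosomal proteins, 8 were higher and 0 lower. Of 24 import and carrier genes, 3 were higher (Timm8b, Tomm7 and Tomm20) and 0 lower. In these ribosomal and import lists the share higher was above that of all genes.

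Under the normal diet, the drug groups of the subcutaneous label gave no call among the 76 members, and 0.0% of all genes passed in either direction (limma). At an unadjusted p under 0.05, 1 member was higher and 1 lower, or 2.63%, against 6.48% of all genes. The median change was -0.03, and 29 of 76 changes were above 0. Ndufa4l2 again had the largest decrease, from 45.9, 55.9, 58.7, 67.3 and 57.0 TPM to 44.9, 22.2, 38.2, 26.1 and 22.7 TPM. The groups did not overlap, which held for 1 member and for 1.16% of all genes, but the change of -0.91 (SE 0.21) did not pass (limma adjusted p = 0.75). The test of the difference between the drug changes under the 2 diets gave 0 calls among members, against 0.0% of all genes higher and 0.0129% lower, with a median of 0.34 and 75 of 76 above 0. At an unadjusted p under 0.05 there were 19 members, or 25%, against 17.7% of all genes in either direction.

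In HFD against normal diet in the subcutaneous label, 6 of 76 members were higher and 0 lower, with 6.57% of all genes higher and 3.7% lower. A share near the background is no result about the members as a group. Atp5k, subunit e of ATP synthase, had 81.9, 106, 90.9, 109.8 and 86 TPM on normal diet and 170.8, 188.8, 157.6, 162.9 and 189.9 TPM under HFD. The groups stood apart, with a change of 0.87 (SE 0.25, limma adjusted p = 0.034). That call was lost in 14 of 25 alternative settings, with a limma adjusted p of up to 0.14.

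Ndufb3, an accessory subunit of the membrane arm, had 39, 44.3, 39.9, 57.3 and 43.9 TPM on normal diet and 80.8, 69.8, 91, 67.9 and 74.3 TPM under HFD. These groups did not overlap either, and the change was 0.77 (SE 0.15, limma adjusted p = 0.0049). Ndufb1, Ndufb6, Ndufa3 and Cox6b1, small accessory subunits, were higher by 0.85, 0.57, 0.50 and 0.44. Calls of Ndufb6, Ndufa3 and Cox6b1 were lost in 5, 17 and 14 of 25 settings, that of Ndufb3 in 1 of 25 and that of Ndufb1 in 1 of 23. In all, 19 members did not overlap between the groups, against 15.9% of genes. The macrophage markers again differed, 5 of 10 tested being higher under HFD. Without HFD libraries 22 and 50, 0 members passed, against 1.03% of all genes higher and 0.356% lower. The median change of the members was then 0.18, against 0.17 with them. Leaving out single libraries gave 2 to 7 calls, with 2 without HFD library 22, 2 without normal library 91 and 3 or 4 without each of 7 others.

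**Figure D5:**
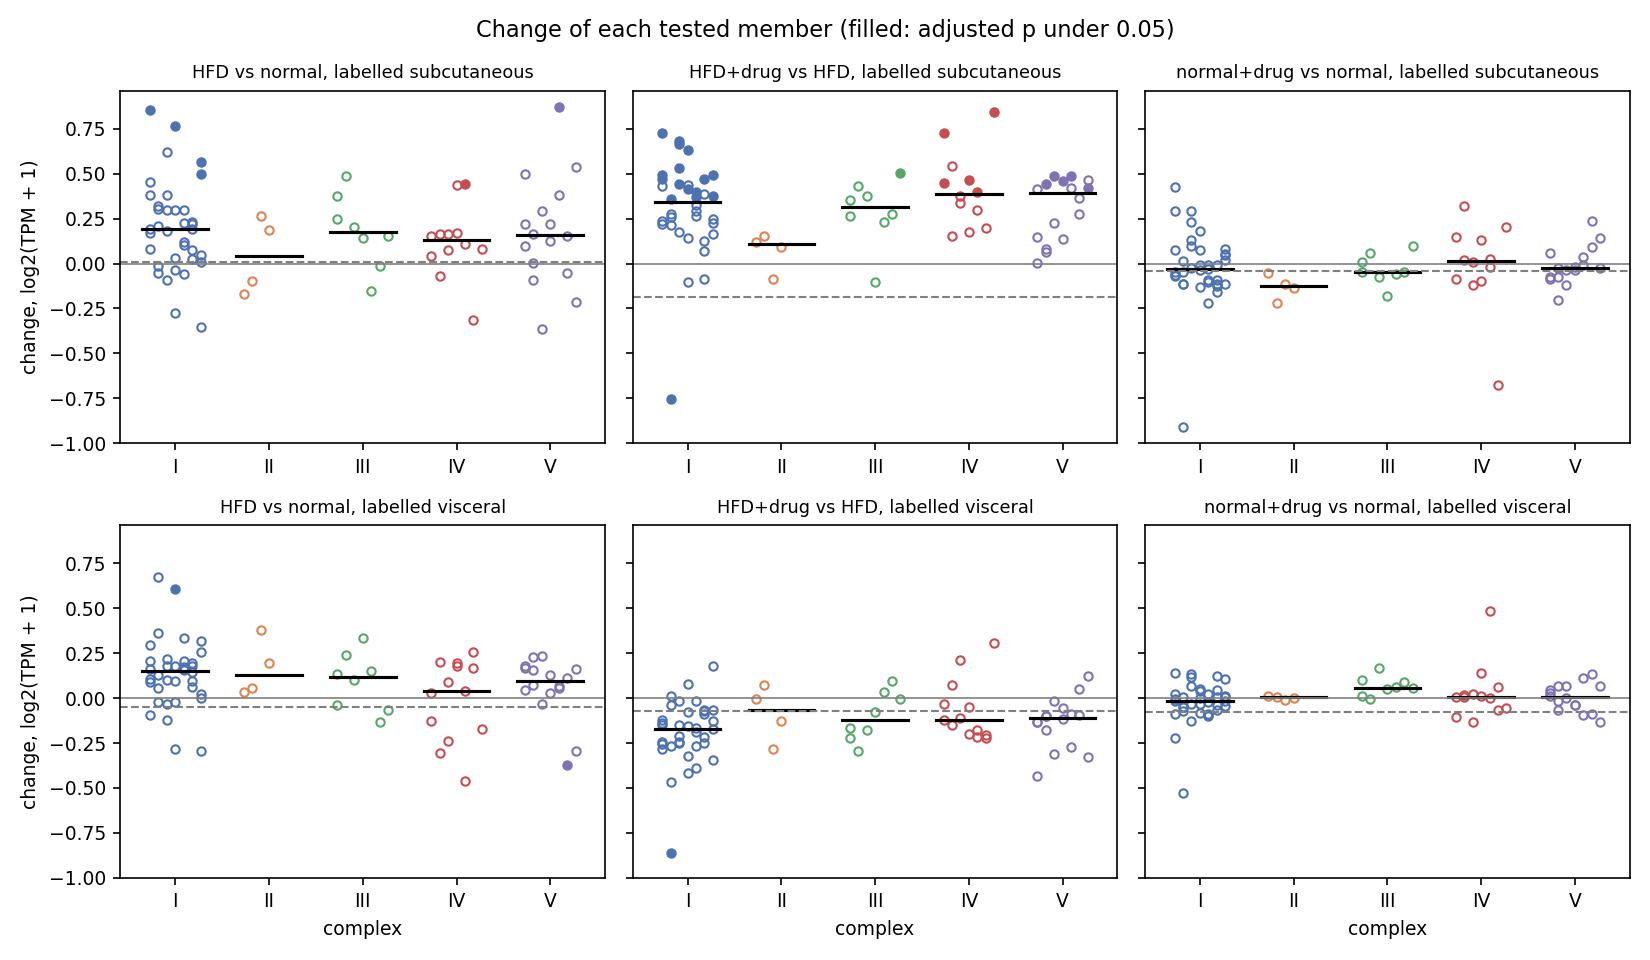
Change of each tested member on the log2(TPM + 1) scale by complex, for diet and drug comparisons in the subcutaneous (top) and visceral (bottom) label. Filled points passed an adjusted p of 0.05, black bars are medians per complex and dashed lines the median of all genes tested. With drug under HFD, the complex medians lie between 0.11 and 0.39 in the subcutaneous label and between -0.17 and -0.07 in the visceral label.

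In the visceral label, HFD against normal diet gave 1 higher and 1 lower of 77 members, with 6.3% of all genes higher and 2.63% lower. Ndufb3 had 70.2, 43.9, 42.7, 64.8 and 53.2 TPM on normal diet and 98.6, 64.2, 90.9, 92.9 and 72.1 TPM under HFD. The groups overlapped in part, and the change was 0.61 (SE 0.16, limma adjusted p = 0.028). Atp5l, subunit g of ATP synthase, changed by -0.37 (SE 0.11, limma adjusted p = 0.044). Of 25 alternative settings, Ndufb3 did not pass in 13, with changes down to 0.32, and Atp5l not in 17. The 13 B cell markers summed to 583.1 to 20805.1 TPM on normal diet and to 280.2 to 4317.6 TPM under HFD, none at 0 in every library of a group, and 0 of 11 tested passed, with a median change of -2.77. Neither member passed with the B cell marker level as a covariate. Leaving out the libraries rich in these markers left 1 normal and 4 HFD libraries, too few to judge these calls. The part of B cells in the result was not tested beyond these values. Leaving out single libraries gave 0 to 6 calls.

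HFD with drug against HFD in the visceral label gave 0 higher and 1 lower of 77 members, with 0.142% of all genes higher and 5.04% lower. Changes were above 0 in 11 of 77, with a median of -0.14 against -0.07 for all genes. The lower member was Ndufa4l2. It had 105.3, 42.1, 100.3, 55.5 and 94.5 TPM under HFD and 41.8, 38.2, 36.8, 51.9 and 36.4 TPM with drug. The groups overlapped at library 23 of HFD, and 0 members had groups that did not overlap, against 4.81% of all genes. For Ndufa4l2 the change was -0.86 (SE 0.24, limma adjusted p = 0.047). Over 25 alternatives the adjusted p ran from 0.0039 to 0.21, and it did not pass in 18 of them. The 13 B cell markers summed to 280.2 to 4317.6 TPM under HFD and to 152.9 to 14350.0 TPM with drug. None was at 0 in every library of a group, and 0 of 11 tested passed, with a median change of 2.71. Without the libraries rich in them, 4 HFD and 2 HFD with drug libraries were left, and the median change of the members was 0.05. In that setting 0 members passed, against 0.0166% of all genes higher and 0.0663% lower, so few calls of any gene were possible. The 6 endothelial markers summed to 184.7 to 327.6 TPM under HFD and to 155.8 to 202.6 TPM with drug. None was at 0 in every library of a group, and 2 of 4 tested (Cdh5 and Tie1) were lower. The part of B cells and endothelium in the result was not tested beyond these values. Normal with drug against normal gave 0 calls among members and 0.0% of all genes in this label (limma), with 1 member lower and 0 higher at an unadjusted p under 0.05, or 1.3% against 3.66% of all genes. Groups did not overlap for 0 members, against 0.902% of genes, and the drug by diet test gave 0 calls among members and 0.0% of all genes, with 4 members lower and 0 higher at that level, or 5.19%, near the 5.27% of all genes.

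The drug changes under HFD were set side by side for the 76 members tested in both labels. The labels use different libraries, though some title numbers recur. In the subcutaneous label 71 were above 0 and in the visceral label 65 were below 0, with both true of 60. Of the 26 members that were higher in the subcutaneous label, 24 had a change below 0 in the visceral label. The median change of all genes was -0.19 in the subcutaneous and -0.07 in the visceral label. Shares of all genes with these signs are not given here, so the counts below 0 do not set the members apart.

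The difference itself, tested in a fit of all 40 libraries, passed for 2 of 77 members, against 0.102% of genes in that direction and 0.0796% in the other, where 0 members passed. For Cox6c it was 0.96 (SE 0.20) and for Ndufb7, an accessory subunit of complex I, 0.73 (SE 0.16). Both had a limma adjusted p of 0.049, and the calls were lost in 16 and 18 of 37 alternative settings. Ndufb7 had 82.8, 74.9, 81.2, 85.5 and 75.6 TPM under HFD and 134.4, 121.0, 117.0, 95.3 and 92.9 TPM with drug in the subcutaneous label. In the visceral label it had 96.3, 72.3, 82.6, 80.2 and 78.2 TPM under HFD and 59.6, 68.9, 67.3, 74.0 and 71.4 TPM with drug. All drug libraries lay above the HFD range in the first label, and in the second all but library 54 lay below it. Differences were above 0 for 74 of 77 members, with a median of 0.50 against -0.11 for all genes. At an unadjusted p under 0.05 there were 47, or 61.0%, against 20% of all genes in either direction. Without HFD libraries 22 and 50 of the subcutaneous label, 0 members and 0.0% of all genes passed, and leaving out single libraries gave 0 to 13 members.

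Over all treatments, 5 members were higher and 13 lower in the subcutaneous than in the visceral label, against 25.8% and 15.9% of genes. These shares lie near or below those of all genes. Cox6a2 had 2.58 ± 4.33 against 70.6 ± 89.6 TPM (n = 20 each). It reached 10 TPM in 2 libraries of the subcutaneous and 15 of the visceral label, so it entered the fit through the label where it is high, and its difference of -3.83 (log2) is given as a description. Cox6a2 is itself 1 of the 18 muscle markers, of which all 12 tested were lower. Other lower members were Sdha (-0.26), Sdhb (-0.33), Uqcrc1 (-0.20), Uqcrc2 (-0.20), Uqcrfs1 (-0.30) and Ndufs1 (-0.22). Sdha had 145.8 ± 21.1 against 174.3 ± 24.0 TPM and Sdhb 44.1 ± 9.81 against 55.4 ± 10.1 TPM (n = 20 each), with limma adjusted p of 0.0026 and 0.0037. None of these 6 passed with the muscle or the epididymis marker level as a covariate, or without epididymis-rich libraries, and without muscle-rich libraries Uqcrfs1 alone of them did. Their smallest changes were between -0.07 for Uqcrfs1 and -0.0025 for Uqcrc1. Calls over all genes also fell, to 13.6% higher and 4.71% lower under the epididymis covariate and 22.2% and 12.8% without epididymis-rich libraries. The epididymis and testis sum differed by label, with medians of 188.8 TPM (subcutaneous) and 2.63 TPM (visceral). That covariate can therefore take up the label difference itself. The 10 brown and beige adipocyte markers summed to 10.5 to 56.7 TPM in the subcutaneous and 54.7 to 845.8 TPM in the visceral label. The 5 tested in this fit were all lower in the subcutaneous label, with a median change of -1.74. Only 1 of the 10 was tested in the fit of the subcutaneous label alone, so these values are a description. The part of muscle, epididymis and brown or beige adipocytes in these differences was not tested beyond these values.

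Members higher in the subcutaneous label were Atp5g1 (0.41), Cox6b2 (0.75), Ndufb7 (0.20), Ndufa7 (0.19) and Cox8a (0.17). Of 57 alternative settings, Cox8a did not pass in 36. With the epididymis marker level as a covariate, which itself differs by label, Ndufa7 alone of the 5 passed. Atp5g1, Cox6b2 and Ndufb7 then had their smallest changes of 0.12, 0.06 and 0.04. Of 16 citric acid cycle genes, 10 were lower and 0 higher, among them Idh3a (-0.34) and Cs (-0.32). With the muscle marker level as a covariate, 5 members were higher, 4 of them among the same 5, and 2 lower, against 20.3% and 21.9% of all genes. Without libraries of more than 1000 TPM of muscle markers, 2 were higher and 3 lower, against 17.8% and 14.4%. The depot by HFD test gave 0 calls among members and 0.0% of all genes (limma), with 6 members higher and 0 lower at an unadjusted p under 0.05, or 7.79%, near the 8.59% of all genes.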

How the data were processed

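Per the labels' protocols, RNA came from an RNeasy Mini kit and libraries from NEBNext Ultra reagents. Tools in the submitters' processing notes are STAR 2.7.8 and featureCounts 2.0.3, with FastQC 0.11.9 and DESeq2 1.32.0 also listed, and the build is GRCm39; annotation and filters are not given in the sources used here. The deposited table holds TPM, computed by the authors, 1 column per library. Every library sums to 998276 TPM. Read totals approximated from the steps between low values were 4.58 to 8.59 M, with only 26.1% to 31.6% of the values used within 0.03 of a whole read against 6% if evenly spread, so depth is a rough estimate and no count test was run. Values were analysed as log2(TPM + 1), which understates changes of low genes. Models of 1 mean per group used limma 3.58.1 (R 4.3.3; trended, robust variances) over genes at 10 TPM or more in at least 5 libraries, the 20 libraries of a depot label together, or all 40 for contrasts between labels. P-values were adjusted by Benjamini-Hochberg over all genes tested. The fit was tested on simulated data with independent genes, which lack the tissue differences between libraries seen here. Exon lengths came from GENCODE M21 (GRCm38), by symbol, for 81 of 86 members. Members, lists, named genes (core and isoform members, the highest-level members, and up to 5 called per complex and direction by size of change) and alternatives were chosen with earlier results of these data known. The motifs and roles, and 4 of the alternatives, were chosen after values were seen. Some single-gene results are not reported here.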

Additional observations from a re-analysis of the deposited data

Results flagged for a closer look

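Among 184 checks of a group of 5 libraries for 1 value far from the rest, 10 were past Dixon's critical value, against 9.2 that chance gives at 1 in 20. Library 62 of HFD with drug under the visceral label gave 3 of them: Ndufs1 at 36.6 TPM with the other libraries between 20.7 and 23.5, Atp5a1 at 857 TPM, and Cox6a2 at 347 TPM. That library also had the highest sums of muscle markers, 21987.1 TPM, and of brown and beige adipocyte markers, 845.8 TPM. In library 98 of the normal group under the subcutaneous label, the complex I sum was 2820 TPM and Cox6c was 105 TPM, above the other 4. In the visceral label, Uqcrc2 (66.9 TPM) and Ndufa6 (146 TPM) were high in HFD library 51, Ndufb3 (88.3 TPM) was high in HFD with drug library 54, Ndufv1 (184 TPM) was low in HFD library 23 and Ndufa6 (113 TPM) was low in normal library 96.

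The drug change under HFD differed between the depot labels by the interaction test for Cox6c, by 0.963 on the log2 scale, and for Ndufb7, by 0.727. Of 37 alternative settings, the call was lost in 16 for Cox6c and in 18 for Ndufb7. The limma adjusted p rose to 0.30 for Cox6c and 0.27 for Ndufb7.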

How the results depend on the processing

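Counts are of members that passed, with changes of settings one at a time. Calls over all genes moved as well. Without epididymis-rich libraries, 5.92% of genes were higher and 31.6% lower with drug under HFD in the subcutaneous label, against 4.4% and 23%. For the difference in drug change between labels, the shares were 2.96% and 4.07%, against 0.102% and 0.0796%. Other shares are not given in this paragraph, so its counts alone do not separate the members from genes at large. HFD against normal in the subcutaneous label gave 6, and 2 with no filter on low values, 2 with library medians made equal, 24 with library quality weights, 10 with the length trend removed and medians kept, 12 without epididymis-rich libraries, 0 without macrophage-rich libraries, 21 from the 2 groups alone and 2 to 7 leaving out 1 library. HFD with drug against HFD in that label gave 27, and 15 with no filter, 10 with the length trend removed and medians kept, 60 without epididymis-rich and 2 without macrophage-rich libraries, 14 from the 2 groups alone and 11 to 40 leaving out 1 library. In the visceral label, HFD against normal gave 2, and 0 with no filter, quantile normalization, equal medians or the 2 groups alone. It gave 1 with a filter of 1 TPM or without mitochondrially encoded genes, and 38 with quality weights. The count was 4 with the length trend removed and medians kept, 4 without muscle-rich libraries and 0 to 6 leaving out 1 library. Dropping B cell-rich libraries left 1 normal library, so no count is given for it. HFD with drug against HFD there gave 1, and 2 with a pseudocount of 5, 25 with quality weights, 0 to 6 leaving out 1 library, and 0 with no filter, a filter of 1 TPM, quantile normalization, equal medians, mitochondrially encoded genes left out, either length correction, a muscle or B cell covariate, the 2 groups alone or without B cell-rich libraries. The depot labels differed in 18, and in 9 with equal medians, 7 with a muscle covariate, 2 with an epididymis covariate, 6 without epididymis-rich and 5 without muscle-rich libraries, and 13 to 22 leaving out 1 library. Under the epididymis covariate the sign turned for Atp5l (0.0051). The difference in drug change between labels passed in 2, and in 1 with a pseudocount of 5 or the length trend removed and medians kept, 4 with equal medians or a B cell covariate, 49 with quality weights or without epididymis-rich libraries, 12 without muscle-rich libraries, 0 with no filter, a filter of 1 TPM, an epididymis covariate or without macrophage-rich libraries, and 0 to 13 leaving out 1 library. With quality weights the drug by diet test in the visceral label gave 9 and the depot by HFD test 4, both 0 otherwise. The other 3 comparisons stayed at 0 in all settings run, and the cause of these changes was not tested.

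The epididymis and B cell covariates, the length trend with medians kept and the drop of macrophage-rich libraries were chosen after seeing the data. Title numbers recur across the depot labels, and no label ties a number to an animal. Of 16 pairs with the same number, 3 correlated above 0.1 in their deviations from the group means (range -0.099 to 0.14). In 6 pairs the best correlation was with their own number. These weak correlations do not settle whether a pair shares an animal. With the number as a replicate block, 13 members passed the difference in drug change between labels, and the counts of the other 2 tests between labels stayed at 18 and 0. Leaving out B cell-rich libraries was not run in the subcutaneous label or across labels, where groups would vanish. TPM without deposited counts leaves the depth approximate, which limits low members most.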
